A study of Mus musculus with 27 samples.

Results

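Wild-type mouse macrophages treated with interleukin 4 (IL4) were set against wild-type macrophages treated with corticosterone. The libraries were chosen by their genotype and treatment labels and are the 3 wild-type IL4 libraries and the 3 wild-type corticosterone libraries, 6 of the 27 in the series. Bone marrow of male mice aged 8 to 10 weeks was grown for 5 days with 20% serum and 10% L-cell conditioned medium, which yields bone marrow-derived macrophages, and the cells were then given vehicle, IL4 at 10 ng/ml or corticosterone at 500 nM for 24 h (dexamethasone, at 100 nM, was the remaining treatment). The wild-type groups are called BL6 in the sample titles, and their genotype is given as C57BL/6, LysM-Cre+/+ ; GRIP1wt/wt, so by that label the controls carry the Cre recombinase too. The knockout groups are LysM-Cre+/+; GRIP1fl/fl. LysM-Cre is expressed from the lysozyme 2 gene and acts in myeloid cells, and GRIP1 is the nuclear receptor coregulator encoded by Ncoa2. The 3 wild-type vehicle libraries are used below for levels, and 3 knockout IL4 and 4 knockout corticosterone libraries for the same contrast in the other genotype. The labels do not tie libraries to separate animals or cultures; the p-values below therefore rest on a spread between libraries that may be only technical.

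IL4 binds a receptor made of Il4ra with Il2rg or Il13ra1, and the associated Janus kinases phosphorylate STAT6, which enters the nucleus and switches on the genes of alternative macrophage activation, among them arginase, mannose and galactose receptors and chitinase-like proteins. Corticosterone, the main glucocorticoid hormone of mice, binds the glucocorticoid receptor Nr3c1, which leaves its chaperones, enters the nucleus, induces target genes directly and represses many inflammatory genes. Both agents are used to bring macrophages into states described as anti-inflammatory, and the contrast asks where those states differ.

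The 6 libraries held 25416792 to 30845315 counts each. Values per library are given as CPM, edgeR's counts scaled to a common library size, always in the order of library numbers 1, 2 and 3. A log2 difference is the fitted log2 of IL4 over corticosterone, so that a positive value means higher with IL4. Calling a gene required an adjusted p below 0.05 in the quasi-likelihood test of edgeR. The value after ± is an approximate standard error (SE), not one estimated by the fit. It was worked back from that test, as the size of the log2 difference over the square root of the F statistic. Intervals of log2 differences given below rest on this SE. The macrophage genes Csf1r (mean 2042 and 2066 CPM with IL4 and corticosterone), Adgre1 (1939 and 1662) and Cd68 (1169 and 1009) were abundant in both groups, and none of them was called. Lyz2, the locus of the Cre insertion, had means of 29.3 and 32.1 CPM. On the first principal component, with 66.8% of the variance, the treatments separated, and the second, with 21.8%, set library number 1 of both treatments apart from numbers 2 and 3. Library 1 was also the highest of its group in stromal markers, summed over the list at 912.5, 358.6 and 229.7 CPM with IL4 and 972.2, 363.3 and 256.5 CPM with corticosterone, and in neutrophil markers, at 319.6, 158.0 and 156.5 against 407.5, 214.4 and 175.8 CPM. None of the 9 tested stromal markers and 1 of the 8 tested neutrophil markers (Mpo, higher with IL4, a call held in 10 of 16 alternative settings) was called between the treatments. With the library number as a block, 4 neutrophil markers were lower with IL4, namely S100a8 (log2 difference -1.02, edgeR adjusted p = 4.96e-05), S100a9 (-0.70, 4.86e-05), Ngp (-0.85, 2.9e-06) and Camp (adjusted p 0.0223), Mpo and Cxcr2 were higher, and 1 stromal marker was lower. S100a8, a calcium-binding protein of neutrophils, read 44.6, 18.0 and 13.1 CPM with IL4 and 81.5, 38.5 and 28.2 CPM with corticosterone, the IL4 library being the lower in each of the 3 numbered pairs. The part of such cells in the differences below was not tested. In bulk RNA, fewer cells of a type and less RNA per cell cannot be told apart.

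Of 14589 genes tested, 4628 were called (31.7%), 2162 higher with IL4 (14.8%) and 2466 lower (16.9%), the latter therefore being higher with corticosterone. Which direction held more calls depended on the settings: the higher calls outnumbered the lower in 9 of 16 alternatives, with 2278 against 2270 under RLE scaling, 2712 against 2296 with only the compared groups fitted and 1981 against 1767 without IL4 library 1. The sizes were not symmetric. At least 2-fold differences were called for 1233 genes (8.45%), 729 higher with IL4 (5% of those tested) and 504 lower (3.45%), at least 4-fold for 307 and 110, and at least 16-fold for 79 and 13. Another 2495 called genes differed by less than 1.5-fold. Of the 9961 genes not called, 5611 (56.3%) had a 95% interval of the log2 difference that lay within 0.5 on either side of 0. Groups whose libraries did not overlap were found for 7190 genes (49.3%). A lack of overlap, given below for single genes, was thus common, and for the leading genes in each direction it was a condition of their choice. Against vehicle, 4388 genes were called for IL4 (30.1%) and 866 for corticosterone (5.94%). With the library number as a block 6193 genes were called, and without number 2 in both groups 2986. Leaving out each of the 6 libraries in turn gave 3737 to 4351 calls, and 2928 of the 4628 genes (63.3%) were called in every one of those fits.

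**Figure D1:**
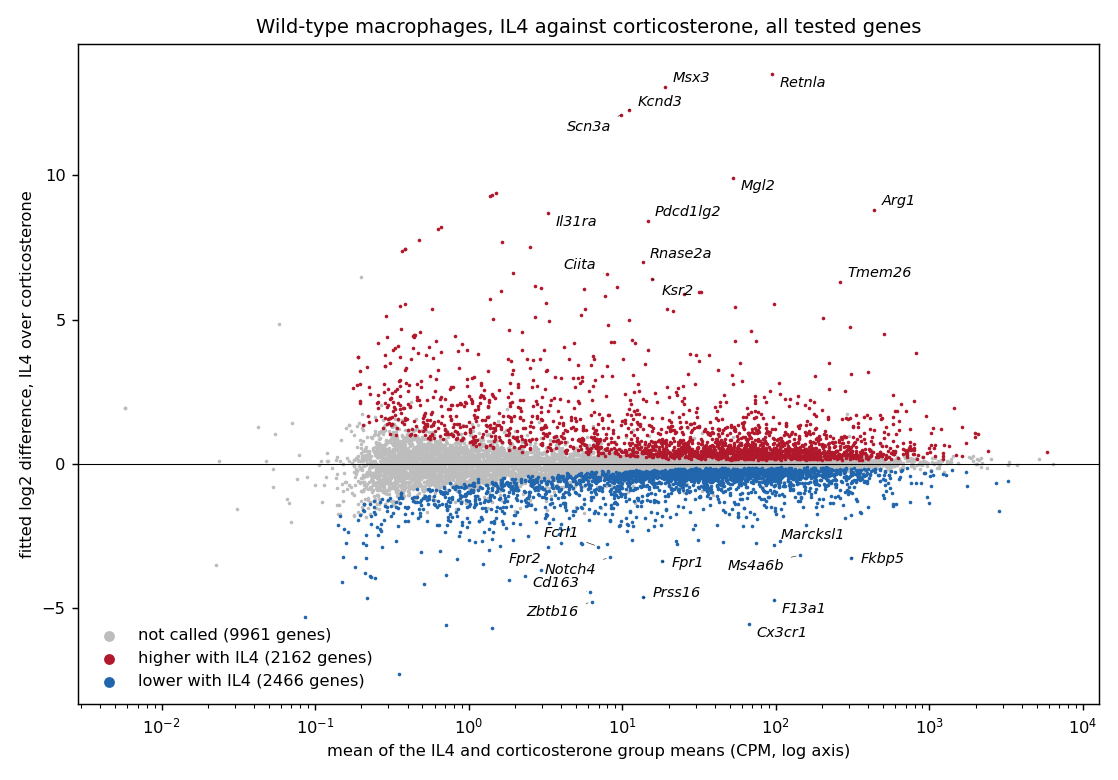
Each point is 1 of the 14589 tested genes, placed by the mean of its IL4 and corticosterone group means (CPM, log axis) and its fitted log2 difference, IL4 over corticosterone. Red genes were higher with IL4 (2162), blue genes lower (2466), grey genes not called; the labelled genes are the 12 leading in each direction at 5 CPM or more, and the points above the axis reach farther from 0 than those below it.

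The components of the IL4 pathway themselves did not move as 1 group. Of 16 tested genes of IL4 receptor and STAT6 signalling, 7 were higher and 4 lower with IL4 (31.7% of all tested genes were called), with a median log2 difference of 0.16 against -0.03 over all tested genes. Over all tested genes 14.8% were called higher and 16.9% lower, the shares beside which the list counts below are to be read. Il4ra, the ligand-binding receptor chain (chr7:125552120-125579474 on mm10, with exons shared with an antisense transcript), was at 247, 201 and 208 CPM with IL4 and 359, 371 and 406 CPM with corticosterone, every IL4 library being the lower (log2 difference -0.79 ± 0.10, edgeR adjusted p = 6.22e-07). The vehicle libraries, at 312, 268 and 303 CPM, lay between the groups. Stat6 differed little, with 259, 272 and 265 against 287, 314 and 308 CPM and a log2 difference of -0.19 ± 0.06 (edgeR adjusted p = 0.0166), and that call was lost with adjusted p = 0.0636 with no filter on low counts, 0.119 without IL4 library 1, 0.0532 without IL4 library 2, 0.0779 without corticosterone library 2, 0.0855 without IL4 library 3 and 0.0593 without corticosterone library 3.

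The kinase gene Jak2 and the feedback inhibitor genes Socs1 and Cish stood on the IL4 side. Other members of these families did not: the kinases Jak1, Jak3 and Tyk2 and the inhibitor Socs3 were not called. Jak2, a Janus kinase, was at 228, 231 and 216 CPM with IL4, 53.3, 52.2 and 49.1 CPM with corticosterone and 48.7, 53.5 and 47 CPM with vehicle (log2 difference 2.12 ± 0.25, edgeR adjusted p = 9.02e-07). Socs1, which blocks cytokine receptor kinases, was at 98.5, 114 and 105 against 2.99, 2.11 and 2.23 CPM (log2 difference 5.44 ± 0.87, edgeR adjusted p = 5.08e-05). Cish, of the same inhibitor family and overlapped by antisense transcripts, was at 67.3, 59.3 and 58.8 against 1.51, 0.768 and 0.721 CPM (5.96 ± 0.56, edgeR adjusted p = 4.2e-08). For all 3 genes the groups were far apart and the corticosterone libraries lay near the vehicle libraries, which for Socs1 read 4.08, 2.7 and 2.94 CPM. Ptpn6, the phosphatase SHP-1, went the other way, with 241, 270.2 and 287 against 361, 403 and 421 CPM and 455, 517 and 537 CPM with vehicle (log2 difference -0.57 ± 0.10, edgeR adjusted p = 6.02e-05).

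Among 15 tested transcription factors known to be induced by IL4, 11 were higher with IL4 and none lower, with a median log2 difference of 1.93. Irf4, a factor needed for alternative activation, read 32.4, 36.8 and 45.3 CPM with IL4 and 1.21, 0.736 and 0.824 CPM with corticosterone (log2 difference 5.38 ± 0.42, edgeR adjusted p = 2.09e-09). Pparg, the lipid-sensing nuclear receptor, read 75.1, 81.2 and 75.5 against 20, 17.5 and 14.5 CPM (2.16 ± 0.21, edgeR adjusted p = 3.51e-08), and its coactivator Ppargc1b 17.3, 17.6 and 17.7 against 5.03, 4.45 and 4.5 CPM (1.91 ± 0.16, edgeR adjusted p = 4.34e-09). In each of these 3 genes every IL4 library exceeded every corticosterone library. Batf3 and Mitf had log2 differences of 3.94 ± 0.44 and 1.08 ± 0.11. Klf4, a factor reported downstream of both STAT6 and the glucocorticoid receptor, read 92.1, 109 and 106 CPM with IL4, 23.6, 29.2 and 27.6 CPM with corticosterone and 16.2, 15.4 and 13.9 CPM with vehicle (log2 difference 1.93 ± 0.31, edgeR adjusted p = 4.76e-05); the corticosterone libraries lay above the vehicle libraries, but the fit of corticosterone against vehicle did not call the gene (log2 difference 0.82 ± 0.32, edgeR adjusted p = 0.161). Msx3, a homeobox factor (chr7:140046157-140049089), read 36.3, 31.9 and 46.2 CPM with IL4 and had no count in any corticosterone or vehicle library, which makes it at least 1110-fold higher with IL4 against a floor of 3 counts over the corticosterone group. The factors not called were Kdm6b, Myc, Cebpb and Rxra.

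The effector genes of alternative activation had the highest median of the 39 pathway lists. Of 28 tested, 27 were higher with IL4 and none lower, and the median log2 difference was 3.88; only Alox15 was not called. Retnla, the secreted resistin-like molecule alpha (chr16:48842551-48844461), read 113, 205 and 247 CPM with IL4 and had 1 count in all corticosterone libraries together and none with vehicle. The ratio of the summed counts was 16600 (95% interval 2980 to 657000) from counting error alone. Arg1, the arginase that turns arginine into ornithine (chr10:24915221-24927484), read 877, 787 and 947 CPM with IL4, 2.12, 1.57 and 2.2 CPM with corticosterone and 3.83, 1.38 and 1.88 CPM with vehicle (log2 difference 8.8 ± 1.80, edgeR adjusted p = 0.000677). Mgl2, a galactose-type lectin (chr11:70130329-70137550), read 126, 82.5 and 107 against 0.0756, 0.128 and 0.103 CPM (9.93 ± 1.55, edgeR adjusted p = 3.87e-05). In all 3 genes the corticosterone libraries were at the vehicle level and no library of one group came near the other.

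Other effectors were present with corticosterone as well. Mrc1, the mannose receptor, read 2207, 2342 and 2312 CPM with IL4, 847, 972 and 1027 CPM with corticosterone and 507, 586 and 589 CPM with vehicle (log2 difference 1.27 ± 0.21, edgeR adjusted p = 4.85e-05), so that the corticosterone libraries lay between the others. Chil3, a chitinase-like secreted protein whose near copy Chil4 can share reads with it, read 1095, 962 and 845 CPM with IL4, 328, 145 and 88.5 CPM with corticosterone and 94.9, 33.5 and 21.1 CPM with vehicle. The groups did not overlap (log2 difference 2.37 ± 0.70, edgeR adjusted p = 0.0129), but within each group library 1 was the highest, as for the neutrophil and stromal markers, and adjusted p was 0.0583 without corticosterone library 2 and 0.0631 without corticosterone library 3. Chil4 read 4.56, 5.01 and 5.43 CPM with IL4 and had 2 counts in all with corticosterone, a ratio of 218 (95% interval 60 to 1810). Matk, a Src-regulating kinase, Itgax, the CD11c integrin chain, and Cdh1, E-cadherin, had log2 differences of 4.27 ± 0.39, 4.75 ± 0.44 and 5.89 ± 0.76. Ocstamp and Dcstamp, membrane proteins needed for macrophage fusion, had 3.75 ± 0.23 and 2.99 ± 0.30.

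**Figure D2:**
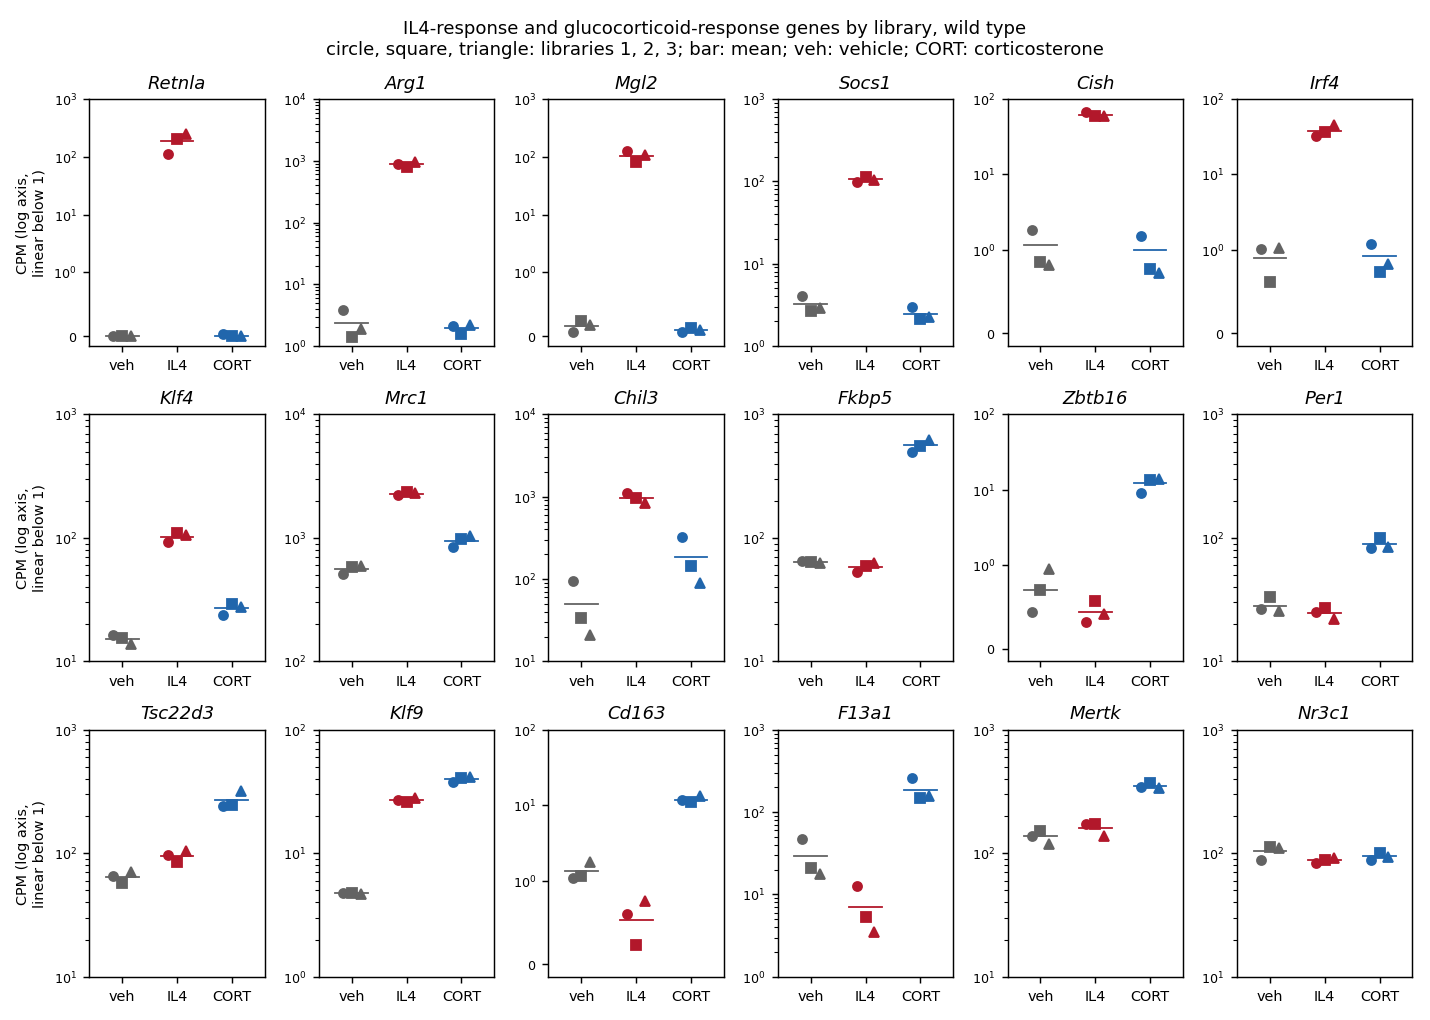
CPM of 18 genes in each wild-type library (log axis, linear below 1 where a panel reaches it) with vehicle (grey), IL4 (red) and corticosterone (blue); bars are means of 3 libraries. In the panels from Retnla to Chil3 the IL4 libraries are the highest, in those from Fkbp5 to Mertk the corticosterone libraries are, and for Nr3c1 the groups overlap.

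Promoters of the named genes were searched for the STAT6 core, TTC and GAA separated by 4 bases, and for the glucocorticoid receptor pattern, GNACA and TGTNC separated by 3 bases (both are palindromic in form, so that a match on one strand is a match on the other), in the 250 bases before the annotated start (RefSeq, build GRCm38.p6). Of 198 named genes, 148 had a promoter in the table, 11 held the STAT6 core and none the receptor pattern. In all 32851 promoters of that length the shares were 5.85% and 0.387%. Counted by gene, with a match in any of its promoters, they were 6.76% and 0.44% of 27025 genes. Among called genes at least 2-fold higher with IL4, 50 of the 510 with a promoter in the table held the STAT6 core (9.8%). The core was held by 23 of 365 genes (6.3%) at least 2-fold lower and 618 of 10614 (5.82%) among all tested genes that matched. The receptor pattern was in 4 of the 510 (0.784%), 3 of the 365 (0.822%) and 33 of the 10614 (0.311%). For 7 of the 8 genes with the largest differences among these 11, the core is shown in capitals with up to 25 bases on each side, so that it can be read on both sides of the contrast. These windows lie upstream of the genes as GENCODE annotates them; in Tmem26 a further core, and in Nlrp3 the core found, fall inside the GENCODE gene and are not printed. A match is a description of letters, not a measured binding site.
Retnla (chr16:48842439-48842498, plus strand): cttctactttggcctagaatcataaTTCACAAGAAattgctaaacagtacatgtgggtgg
Pdcd1lg2 (chr19:29410812-29410871, plus strand): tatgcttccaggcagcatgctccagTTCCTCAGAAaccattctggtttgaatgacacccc
Tmem26 (chr10:68723496-68723553, plus strand): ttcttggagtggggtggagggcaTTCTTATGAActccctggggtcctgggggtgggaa
Itgax (chr7:128129398-128129457, plus strand): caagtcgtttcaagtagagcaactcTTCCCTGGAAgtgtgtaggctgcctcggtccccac
Clec7a (chr6:129472876-129472935, minus strand): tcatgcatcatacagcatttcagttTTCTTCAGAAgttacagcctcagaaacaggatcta
Ccl17 (chr8:94810274-94810333, plus strand): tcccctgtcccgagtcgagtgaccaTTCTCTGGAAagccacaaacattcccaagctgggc
Il18 (chr9:50554629-50554688, plus strand): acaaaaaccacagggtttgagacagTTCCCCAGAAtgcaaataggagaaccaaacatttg

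The genes higher with IL4 among those shown were Retnla, Pdcd1lg2, Tmem26, Itgax, Clec7a and Ccl17, and the lower one was Il18. Tmem26, a membrane protein (chr10:68723646-68782650), read 521, 526 and 498 CPM with IL4, 8.58, 6.88 and 4.33 CPM with corticosterone and 21.4, 17.3 and 9.84 CPM with vehicle (log2 difference 6.29 ± 0.86, edgeR adjusted p = 7.41e-06), and the groups were far apart. The core therefore stood in promoters on both sides of the contrast.

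Ion channel and signalling genes were among those with the largest differences. Kcnd3, a voltage-gated potassium channel (chr3:105452330-105674002), read 18.9, 22.2 and 24.8 CPM with IL4 and had no count with corticosterone, at least 640-fold. Scn3a, a voltage-gated sodium channel (chr2:65457118-65567627), read 15.3, 19.5 and 23.7 CPM and again had no count with corticosterone, at least 571-fold. Il31ra, a cytokine receptor chain, read 5.72, 6.6 and 7.46 CPM with IL4 and had 1 count with corticosterone, a ratio of 577 (95% interval 103 to 22800). These 3 genes were at or near 0 with vehicle, where the largest value of any of them was 0.0365 CPM. Ksr2, a scaffold of the MAP kinase cascade, read 33, 32.7 and 27 against 0.529, 0.352 and 0.206 CPM (log2 difference 6.41 ± 0.54, edgeR adjusted p = 5.77e-09). Rnase2a, an eosinophil-type ribonuclease that is also a member of the alternative activation list, read 24.6, 26.4 and 29.8 against 0.151, 0.288 and 0.172 CPM (7.0 ± 1.12, edgeR adjusted p = 4.76e-05). Markers of eosinophils moved on the same side in part: of 3 tested, Siglecf (18.6, 19.3 and 18.4 against 1.78, 1.79 and 0.927 CPM) and Prg2 (3.32, 1.93 and 1.17 against 0.151, 0.192 and 0.103 CPM) were higher with IL4 and Ccr3 was not called (with the library number as a block all 3 were higher), while Il5ra had no count in any of these libraries and Epx was at or below 0.16 CPM. The part of such cells in these differences was not tested.

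In the main fit, few genes of the glucocorticoid receptor and its machinery passed the test. Nr3c1, the receptor, read 83.9, 88.2 and 91.3 CPM with IL4 and 88.3, 100.2 and 94 CPM with corticosterone, overlapping ranges with a log2 difference of -0.10 ± 0.10 (95% interval -0.31 to 0.11, edgeR adjusted p = 0.497). Of 20 tested genes for the receptor, its chaperones and coregulators, 2 were higher and 2 lower with IL4, and the median was -0.05. The called share was 20%, against 31.7% of all tested genes. Higher were Hsp90ab1, the HSP90 chaperone (0.32 ± 0.08), and Crebbp, a histone acetyltransferase (0.43 ± 0.13); lower were Nrip1, a corepressor (-0.56 ± 0.15), and Dnajb1, an HSP40 cochaperone (-0.23 ± 0.07, lost with adjusted p = 0.169 without IL4 library 1, 0.0529 without corticosterone library 2 and 0.056 without IL4 library 3). The higher members numbered 4 with a minimum count of 50, 6 with only the compared groups fitted and 5 with the library number as a block. The lower members numbered 6 with only the compared groups fitted or the library number as a block. They numbered 1 without IL4 library 1, corticosterone library 2 or IL4 library 3. Over all genes, 5008 were called with only the compared groups fitted and 6193 with the block, and the low share of this list did not hold there. Ncoa2, which encodes GRIP1, read 59, 68.6 and 62.3 CPM with IL4 and 76.5, 87.7 and 75.2 CPM with corticosterone. Its IL4 libraries all lay below its corticosterone libraries, but it was not called (log2 difference -0.33 ± 0.16, edgeR adjusted p = 0.107) except with the library number as a block (edgeR adjusted p = 0.00218) or with only the compared groups fitted (0.0177).

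Known targets of the receptor lay mostly on the corticosterone side. Of 35 tested, 4 were higher and 18 lower with IL4, and the median log2 difference was -0.76, the lowest of the 39 pathway lists. Fkbp5, the immunophilin that feeds back on the receptor (chr17:28399094-28517527), read 53.4, 59.1 and 62.8 CPM with IL4, 499, 559 and 624 CPM with corticosterone and 65.6, 63.7 and 63 CPM with vehicle (log2 difference -3.26 ± 0.10, edgeR adjusted p = 1.03e-16). Zbtb16, a zinc finger repressor (chr9:48654297-48836222), read 0.32, 0.569 and 0.415 against 9.0, 13.5 and 14.1 CPM, with 0.438, 0.705 and 0.957 CPM for vehicle (-4.79 ± 0.28, edgeR adjusted p = 1.35e-11). Per1, a clock gene with direct hormone control, read 25.3, 27.2 and 22 against 83, 100.5 and 83.7 CPM, with 26.4, 32.9 and 25.7 CPM for vehicle (-1.84 ± 0.11, edgeR adjusted p = 1.67e-11). In these 3 genes the IL4 libraries were at or just below the vehicle level, and the fits of IL4 against vehicle, which share the IL4 libraries with this contrast, did not call them.

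In other receptor targets the IL4 libraries stood apart from vehicle too. Tsc22d3, the leucine zipper protein GILZ, read 97.2, 84.7 and 105 CPM with IL4, 241, 245 and 321 CPM with corticosterone and 65.2, 57.1 and 70.2 CPM with vehicle (log2 difference -1.49 ± 0.12, edgeR adjusted p = 2.03e-09). Klf9, a zinc finger factor, read 27.2, 26.2 and 27.9 CPM with IL4, 37.7, 40.5 and 41.3 CPM with corticosterone and 4.81, 4.75 and 4.65 CPM with vehicle. For Klf9 both treated groups lay well above vehicle (log2 2.52 ± 0.14 for IL4 and 3.07 ± 0.14 for corticosterone) and differed from each other by -0.55 ± 0.12 (edgeR adjusted p = 0.00127). The 4 members higher with IL4 were Sgk1, Anxa1, Rgs2 and Angptl4, of which Anxa1, the annexin that dampens leukocyte entry, read 1013, 1087 and 1036 CPM with IL4, 498, 453 and 415 CPM with corticosterone and 676, 666 and 607 CPM with vehicle (log2 difference 1.2 ± 0.10, edgeR adjusted p = 4.34e-09). With the library number as a block 9 members were higher.

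Genes of the circadian clock were divided. Of 16 tested, 9 were higher and 3 lower with IL4, with a median of 0.44. Per2, a clock repressor, read 6.48, 7.32 and 6.81 CPM with IL4, 2.23, 2.59 and 2.33 CPM with corticosterone and 3.97, 5.24 and 4.71 CPM with vehicle (log2 difference 1.52 ± 0.22, edgeR adjusted p = 5.86e-06), the opposite direction to Per1. Tef, an output factor, read 54.6, 60.1 and 61.6 against 23.4, 25.6 and 27.5 CPM, with 45.9, 51.4 and 52.3 CPM for vehicle (1.21 ± 0.13, edgeR adjusted p = 7.36e-08), and Arntl, the activator BMAL1, 13.2, 13.2 and 14.5 against 19.1, 20.6 and 23.6 CPM, with 13.6, 13.5 and 15.6 CPM for vehicle (-0.63 ± 0.12, edgeR adjusted p = 0.000291). For Tef and Arntl the IL4 libraries were near vehicle and the corticosterone libraries stood apart from both. Bhlhe40, a repressor also induced by cytokines, had a log2 difference of 3.05 ± 0.37, with 63.7, 41.3 and 31.5 CPM for vehicle, 54.6, 35.6 and 26 CPM for corticosterone and 342, 327 and 293 CPM for IL4.

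Among 17 tested phosphatases and feedback inhibitors of MAP kinases, 3 were higher and 7 lower with IL4 (median -0.18, or -0.55 without IL4 library 1 and -0.0022 without IL4 library 2). Dusp1, the phosphatase that glucocorticoids induce, read 52.9, 58 and 39.3 CPM with IL4, 125, 153 and 88.7 CPM with corticosterone and 77.3, 90.7 and 61.1 CPM with vehicle (log2 difference -1.29 ± 0.27, edgeR adjusted p = 0.000861). Dusp6, specific for ERK kinases, was lower by a similar amount (-1.14 ± 0.11), as were Spry2 (-1.55 ± 0.15) and Spred2 (-0.71 ± 0.11), inhibitors of receptor tyrosine kinase signalling. Dusp4 stood on the IL4 side, with 248, 298 and 278 against 64.4, 67.1 and 45.5 CPM (2.22 ± 0.48, edgeR adjusted p = 0.00118).

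The genes that led on the corticosterone side had different relations to vehicle. F13a1, coagulation factor XIII A (chr13:36867178-37050244), read 12.6, 5.31 and 3.49 CPM with IL4, 258, 150.3 and 155 CPM with corticosterone and 47.8, 21 and 17.9 CPM with vehicle (log2 difference -4.74 ± 0.47, edgeR adjusted p = 1.24e-07). Cd163, the haemoglobin-haptoglobin scavenger receptor (chr6:124304656-124330527), read 0.60, 0.228 and 0.76 against 11.5, 10.9 and 13.1 CPM, with 1.09, 1.13 and 1.74 CPM for vehicle (-4.46 ± 0.28, edgeR adjusted p = 3.56e-11). Prss16, a thymus-type serine protease, read 1.0, 0.873 and 1.28 against 18.8, 27.7 and 32.5 CPM, with 5.36, 6.31 and 9.7 CPM for vehicle (-4.64 ± 0.43, edgeR adjusted p = 3.18e-08). For these 3 genes vehicle lay between the groups, IL4 being below it and corticosterone above it. F13a1 and Chil3 are also monocyte markers. Chil3 and Ccr2 of that list were called higher with IL4, and F13a1 was among those called lower (with the library number as a block 3 of 8 were higher and 4 lower). The list's sum was 969.1 to 1240 CPM with IL4, mostly Chil3, and 355.8 to 712.1 CPM with corticosterone. In corticosterone libraries 2 and 3 F13a1 (150.3 and 155.4 CPM) exceeded Chil3 (145 and 88.5 CPM), so the sums differ in make-up. The part of monocytes in these differences was not tested. Ms4a6b, a membrane-spanning protein with close paralogs, and Notch4, a Notch receptor, had the same order, with log2 differences of -3.17 ± 0.14 and -3.25 ± 0.25.

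In a further set, the corticosterone libraries lay near vehicle or below it and the IL4 libraries were the lowest. Cx3cr1, the fractalkine receptor (chr9:119901616-120069879), read 1.76, 2.69 and 3.8 CPM with IL4, 89.3, 149.6 and 154 CPM with corticosterone and 134, 226 and 250.3 CPM with vehicle (log2 difference -5.56 ± 0.69, edgeR adjusted p = 2.54e-06). Fpr1, a receptor for formylated bacterial peptides, read 3.64, 2.39 and 3.49 against 30.7, 31.6 and 37.4 CPM, with 75.3, 56.9 and 65.4 CPM for vehicle (-3.39 ± 0.55, edgeR adjusted p = 5.29e-05), and its neighbour Fpr2 0.961, 0.569 and 0.795 against 6.28, 5.28 and 5.77 CPM (-2.89 ± 0.44). In Cx3cr1, Fpr1 and Fpr2 every IL4 library was below every other library. Fcrl1, an Fc receptor-like protein, and Marcksl1, an actin-binding protein, had log2 differences of -2.87 ± 0.29 and -2.8 ± 0.32, with vehicle means of 10.6 and 242 CPM beside corticosterone means of 12.2 and 169 CPM.

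Dexamethasone, a synthetic glucocorticoid given at 100 nM, provides levels for another ligand of the same receptor in the 3 wild-type dexamethasone libraries. Fkbp5 read 772, 871 and 948 CPM there, Zbtb16 23.3, 31.4 and 35 CPM and Tsc22d3 388, 352 and 474 CPM. Klf9 read 66.9, 65.9 and 69.2 CPM, Cd163 16.2, 13.2 and 18.6 CPM and F13a1 279, 239 and 265 CPM. Each of these 6 genes was higher in every dexamethasone library than in every IL4 library given above. Arg1 stood at 67.1, 0.993 and 2.07 CPM with dexamethasone, library 1 being far above the other two and all below the IL4 libraries, and Retnla at 0.0995, 0 and 0 CPM.

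Of 15 tested genes of antigen presentation by MHC class II, 9 were higher and 1 lower with IL4 (Rfxap), and the median was 0.88. Ciita, the master activator of class II genes (chr16:10480059-10528418), read 12.4, 17.3 and 17.2 CPM with IL4, 0.113, 0.224 and 0.137 CPM with corticosterone and 0.547, 0.521 and 0.991 CPM with vehicle (log2 difference 6.57 ± 0.41, edgeR adjusted p = 3.56e-11). The class II chains H2-Ab1 (125, 124 and 113 against 32.8, 25.3 and 19.6 CPM) and H2-Eb1 (99, 91.1 and 83 against 16.4, 13.2 and 10.6 CPM) had log2 differences of 2.22 ± 0.23 and 2.77 ± 0.29, and the peptide loaders H2-DMa and H2-DMb1 2.01 ± 0.18 and 1.45 ± 0.14. In these 5 genes no library of one group reached the other, though class II genes resemble each other and H2-DMa overlaps Brd2, which makes single values less certain. The count of lower members was 0 with RLE scaling, no filter on low counts or a minimum count of 50 or without any one of the 6 libraries, where Rfxap was lost. Markers of dendritic cells, which are rich in class II, were higher with IL4 for 3 of 5 tested (4 of 5 with the library number as a block). They were Batf3, Zbtb46 and Ccr7, the latter pair with calls held in 8 and 10 of 16 alternative settings. The list summed to 228.9 to 232.7 CPM with IL4, 168.4 to 175.3 CPM with corticosterone and 177.4 to 222.9 CPM with vehicle. Most of each sum was Bst2, which was called only with the block among the 2 fits given here. Bst2 read 192.4 to 200.6 CPM with IL4, 163.8 to 171.5 CPM with corticosterone and 170.5 to 210.3 CPM with vehicle. Flt3 stayed at or below 0.481 CPM, Clec9a at or below 0.20 CPM and Xcr1 at or below 0.096 CPM. The part of such cells in the class II genes was not tested.

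Costimulatory and checkpoint genes were split evenly, 6 higher and 6 lower of 20 tested (median -0.07, or -0.16 without corticosterone library 2). Pdcd1lg2, the checkpoint ligand PD-L2 (chr19:29410919-29471161), read 28.5, 28.4 and 30.6 CPM with IL4 and 0.113, 0.064 and 0.0687 CPM with corticosterone (log2 difference 8.42 ± 0.81, edgeR adjusted p = 6.08e-08). Cd40, which receives help from T cells, read 21.7, 22.2 and 26.2 against 5.48, 4.64 and 5.49 CPM, with 11.2, 8.86 and 9.7 CPM for vehicle (2.17 ± 0.28, edgeR adjusted p = 2.19e-06). Icosl, the ICOS ligand, was lower, at 2.92, 3.34 and 3.28 against 18.5, 20.6 and 21 CPM with 17.8, 19.9 and 26.1 CPM for vehicle (-2.65 ± 0.21, edgeR adjusted p = 1.94e-09). In all 3 genes the groups did not overlap. Tnfsf9, the 4-1BB ligand, was also lower (-2.17 ± 0.20) and Cd276, a B7 family member with an antisense neighbour, higher (1.73 ± 0.21).

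C-type lectin receptors, which bind sugars on microbes and glycoproteins, were likewise divided, 6 higher and 5 lower of 19 tested (median 0.04, or -0.10 without IL4 library 1 and 0.37 without corticosterone library 1). Clec7a, the beta-glucan receptor dectin-1, read 1116, 944 and 864 CPM with IL4, 55.8, 43.1 and 30.2 CPM with corticosterone and 120.4, 97.3 and 62.5 CPM with vehicle (log2 difference 4.5 ± 0.57, edgeR adjusted p = 2.79e-06). Clec10a, the relative of Mgl2, read 26.7, 25.6 and 30.2 against 5.41, 5.76 and 7.69 CPM (2.13 ± 0.35), and Clec4a3 73.9, 78.1 and 80.8 against 35.5, 36.2 and 40.2 CPM (1.06 ± 0.11). Clec4d, a receptor for mycobacterial glycolipid, was lower, at 246, 174 and 172 against 497, 439 and 451 CPM (-1.23 ± 0.20, edgeR adjusted p = 4.28e-05). In these 4 genes the groups were apart, and for Clec4d corticosterone was near the vehicle mean of 480.1 CPM.

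Scavenger receptors were more often lower with IL4, 9 of 17 tested against 4 higher, with a median of -0.44. Stab1, a receptor for modified lipoproteins and hyaluronan, read 1287, 1378 and 1502 CPM with IL4, 3995, 4420.3 and 4413 CPM with corticosterone and 2250.5, 2418 and 2508 CPM with vehicle (log2 difference -1.62 ± 0.13, edgeR adjusted p = 1.51e-09). Its relative Stab2 was higher, at 5.68, 6.03 and 5.84 against 2.23, 2.91 and 2.57 CPM (1.18 ± 0.17), as were Cd36, the oxidised lipoprotein and fatty acid receptor, at 2953, 2502 and 2303 against 1518, 1282 and 1262 CPM (0.93 ± 0.14), and Ssc5d (2.02 ± 0.23). The pair of stabilins thus differed in opposite directions, and for both no libraries overlapped.

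Genes for the uptake of dead cells were lower with IL4 in 12 of 25 tested and higher in 4, with a median of -0.17, or -0.25 without corticosterone library 3. Mertk, the receptor kinase that senses phosphatidylserine through bridging proteins, read 172, 172 and 138 CPM with IL4, 342, 368 and 335 CPM with corticosterone and 139, 153 and 119 CPM with vehicle (log2 difference -1.12 ± 0.12, edgeR adjusted p = 7.13e-08). Gas6, a bridging ligand of that receptor, read 387, 374 and 374 against 695, 781 and 796 CPM, with 528, 531 and 533 CPM for vehicle (-1.0 ± 0.10, edgeR adjusted p = 3.92e-08). The receptor and the ligand were both highest with corticosterone, without overlap. Elmo1, an adaptor for engulfment with an antisense neighbour, was lower (-0.75 ± 0.13), while Itgb3, the vitronectin receptor chain, was higher, at 197, 198 and 158 against 31.2, 29.5 and 18.2 CPM (2.81 ± 0.43, edgeR adjusted p = 2.84e-05), as was Cd300a (0.55 ± 0.09).

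Complement genes were lower in 8 and higher in 2 of 20 tested (median -0.24, or -0.38 without IL4 library 1 and -0.09 without IL4 library 3). C5ar1, the receptor for the chemoattractant C5a, read 164, 160.4 and 179 CPM with IL4, 529.8, 583 and 542 CPM with corticosterone and 494, 501 and 508 CPM with vehicle (log2 difference -1.72 ± 0.12, edgeR adjusted p = 1.59e-10). Cd55, which protects cells from complement, read 14.7, 10.9 and 11 against 72.3, 80.3 and 84.3 CPM, with 44.3, 52.7 and 65.2 CPM for vehicle (-2.7 ± 0.37, edgeR adjusted p = 6.03e-06). C1qc, a chain of the initiator C1q, read 844, 864 and 878 against 1112, 1161 and 1233 CPM, with 850.3, 859 and 905 CPM for vehicle (-0.44 ± 0.08). In C5ar1 the IL4 libraries were the ones apart from vehicle, in C1qc the corticosterone libraries were, and in Cd55 both lay away from it on opposite sides. C5ar2, the second C5a receptor, was lower too (-1.37 ± 0.15).

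Of 8 tested Fc receptors, 2 were higher with IL4 and 3 lower. Fcgr2b, the inhibitory receptor for IgG, read 564, 555 and 549.5 CPM with IL4, 75.3, 62.3 and 54.3 CPM with corticosterone and 79.5, 56.7 and 42.4 CPM with vehicle (log2 difference 3.12 ± 0.51, edgeR adjusted p = 6.81e-05). Fcgr1, the activating high-affinity receptor, went the other way, at 50, 45.2 and 57.2 against 136, 142 and 159 CPM, with 159, 148 and 177 CPM for vehicle (-1.52 ± 0.16, edgeR adjusted p = 9.76e-08). For both the corticosterone libraries were near vehicle and the IL4 libraries stood apart. The 3 lower calls became 1 without IL4 library 1, IL4 library 2 or corticosterone library 3, since Fcgrt (-0.54 ± 0.16) and Trim21 (-0.36 ± 0.12) were lost there.

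**Figure D3:**
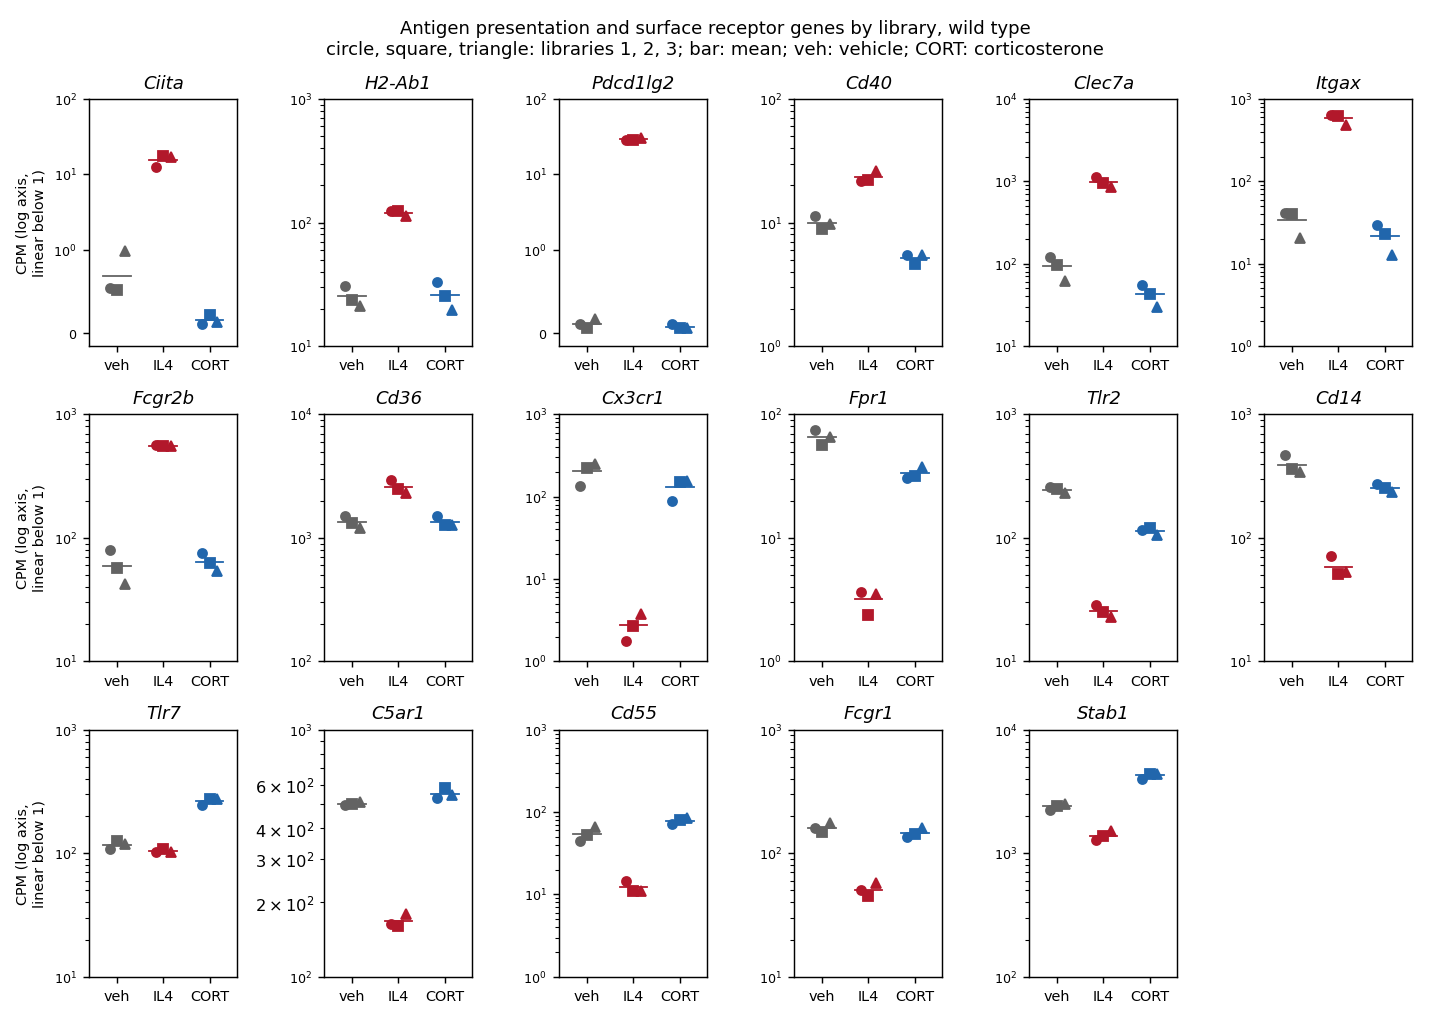
CPM of 17 genes of antigen presentation, costimulation and surface receptors in each wild-type library (log axis, linear below 1 where a panel reaches it) with vehicle (grey), IL4 (red) and corticosterone (blue); bars are means of 3 libraries. From Ciita to Cd36 the IL4 libraries are the highest, and from Cx3cr1 to Stab1 they are the lowest (in Tlr7 only just below vehicle), without overlap with corticosterone in any panel.

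Chemokine ligands were higher with IL4 in 8 of 23 tested and lower in 1, and the median was 0.82. The called share was 39.1%, against 31.7% of all tested genes. Ccl22, a ligand of the receptor CCR4, read 12.7, 7.47 and 7.43 CPM with IL4, 0.756, 0.48 and 0.275 CPM with corticosterone and 5.29, 2.7 and 2.39 CPM with vehicle (log2 difference 4.19 ± 0.45, edgeR adjusted p = 1.35e-07). Ccl24, an eosinophil attractant, read 7.37, 4.44 and 4.42 against 0.34, 0.288 and 0.652 CPM, with 0.109, 0.123 and 0.0342 CPM for vehicle (3.65 ± 0.40, edgeR adjusted p = 1.9e-07). Ccl17, another CCR4 ligand, stood at only 0.761, 0.683 and 0.449 CPM with IL4 and 3 counts in all with corticosterone, a ratio of 18 (95% interval 5.82 to 90.4). Against vehicle, corticosterone lowered Ccl22 (log2 -2.78 ± 0.45, edgeR adjusted p = 0.000255) and raised Ccl24 (2.2 ± 0.61, edgeR adjusted p = 0.0293), in fits that share the corticosterone libraries with this contrast. Cxcl16, a membrane-bound ligand with an overlapping neighbour, was the lower member (-0.66 ± 0.12), and the call of Cxcl3 (1.53 ± 0.40) was lost with adjusted p = 0.1 without IL4 library 1, that library holding the highest value of its group. The higher members numbered 14 with the library number as a block, 3 without IL4 library 1, 4 without corticosterone library 2 and 5 without corticosterone library 3.

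Among 27 tested chemokine and chemoattractant receptors 7 were higher and 12 lower with IL4 (median -0.14, or -0.09 without IL4 library 1). Gpr35, a receptor for tryptophan metabolites, read 2.72, 1.59 and 1.69 CPM with IL4, 17.1, 13.1 and 11.2 CPM with corticosterone and 4.85, 3.49 and 3.83 CPM with vehicle (log2 difference -2.79 ± 0.23, edgeR adjusted p = 2.55e-09). S1pr1, the sphingosine phosphate receptor that guides cell exit from tissues, read 54.1, 47.4 and 44.6 against 102, 115 and 103 CPM (-1.14 ± 0.10), and Cxcr3 2.92, 3.76 and 3.14 against 8.81, 10.3 and 11.2 CPM (-1.62 ± 0.19). None of these 3 had overlapping groups, as for 49.3% of all tested genes. The 2 formyl peptide receptors and Cx3cr1 above belong to the same list, and they were chosen by a rule that required no overlap. The 7 higher calls were 4 with no filter on low counts or without IL4 library 1 or corticosterone library 2.

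Toll-like receptors and their adaptors were lower with IL4 in 9 of 23 tested and higher in 1 (median -0.20). Tlr2, the receptor for bacterial lipoproteins, read 28.9, 25.3 and 22.9 CPM with IL4, 117, 119.8 and 106 CPM with corticosterone and 258, 247 and 231 CPM with vehicle (log2 difference -2.15 ± 0.32, edgeR adjusted p = 1.6e-05). Cd14, the coreceptor for lipopolysaccharide, read 70.7, 51.4 and 52.9 against 275, 251 and 236 CPM, with 469.7, 358 and 341 CPM for vehicle (-2.12 ± 0.27, edgeR adjusted p = 2.83e-06). Tlr7, a sensor of single-stranded RNA, read 102, 108 and 103 against 246, 275 and 276 CPM, with 109, 125 and 119 CPM for vehicle (-1.35 ± 0.14, edgeR adjusted p = 5.83e-08). For Tlr2 and Cd14 both treated groups lay below vehicle, IL4 the further, whereas for Tlr7 IL4 was close to vehicle and corticosterone above it. Tlr13, a sensor of bacterial ribosomal RNA, and Tlr5, for flagellin, had log2 differences of -1.09 ± 0.09 and -4.01 ± 0.53. Tlr4, the lipopolysaccharide receptor itself, was not called (0.22 ± 0.09, edgeR adjusted p = 0.0791). The single higher call, Ticam1, became 2 with no filter on low counts or a minimum count of 50, 3 with DESeq2 or without IL4 library 1, 4 with only the compared groups fitted or the library number as a block and 0 without corticosterone library 3.

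Proinflammatory cytokines and NF-kappaB genes went both ways, with 7 higher and 9 lower of 30 tested and a median of 0.05, or -0.07 without corticosterone library 3 and 0.20 without IL4 library 3. Nlrp3, the inflammasome sensor, read 23.1, 26.1 and 26.1 CPM with IL4, 77.9, 94.3 and 91.1 CPM with corticosterone and 91, 97.2 and 94.6 CPM with vehicle (log2 difference -1.81 ± 0.15, edgeR adjusted p = 2.03e-09). Il18, a substrate of the inflammasome, read 2.92, 3.45 and 2.8 against 8.96, 8.96 and 9.58 CPM (-1.58 ± 0.17), and Nfkbia, the NF-kappaB inhibitor, 90.2, 82.5 and 77.8 against 177, 189 and 188 CPM (-1.15 ± 0.11). In all 3 the IL4 libraries were the lower, without overlap. Tnip3, a negative regulator of NF-kappaB, was higher, at 68.3, 75.4 and 77.2 against 29.2, 29.7 and 27.3 CPM, but vehicle was higher still at 89.3, 98.9 and 105 CPM (1.36 ± 0.12, edgeR adjusted p = 4.34e-09). Icam1, an adhesion molecule with an antisense neighbour, had the same order, with means of 108, 67 and 123 CPM for IL4, corticosterone and vehicle (0.69 ± 0.07). Il6, Il12a, Il12b, Il23a and Nos2 were left out of the test for low counts. The 7 higher calls were 14 with the library number as a block and 11 without number 3 of the IL4 group.

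A mixed list of anti-inflammatory cytokines and of cytokine receptors gave 7 higher and 9 lower members of 20 tested (median -0.22). It holds receptors for IL17, TNF and interferons too, so its counts do not describe restraint of inflammation alone. Il6st, the shared receptor chain gp130, read 230.2, 255 and 239 CPM with IL4, 97.1, 91.8 and 87.1 CPM with corticosterone and 66.7, 71.2 and 70.4 CPM with vehicle (log2 difference 1.39 ± 0.09, edgeR adjusted p = 6e-11). Il17ra, a receptor chain for IL17, read 68.5, 65.3 and 57.2 against 131, 149.5 and 124 CPM (-1.08 ± 0.13, edgeR adjusted p = 1.03e-06). The TNF receptor Tnfrsf1b was higher (0.75 ± 0.08), as were Il27ra (2.92 ± 0.37) and, by a small step, Ifngr2, a chain of the interferon gamma receptor (0.37 ± 0.05). Tgfb1 was higher by 0.43 ± 0.07, and Il10, the main inhibitory cytokine of macrophages, was lower (-0.83 ± 0.17, edgeR adjusted p = 0.000522).

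Of 40 tested interferon-stimulated genes, 3 were higher with IL4, 8 lower and 29 not called, so that 27.5% were called against 31.7% of all tested genes (median -0.23, or -0.37 without corticosterone library 1 and -0.13 without corticosterone library 3). Usp18, which curbs interferon signalling, read 19.3, 17.6 and 18.4 CPM with IL4, 3.55, 3.13 and 5.12 CPM with corticosterone and 6.45, 6.83 and 9.33 CPM with vehicle (log2 difference 2.23 ± 0.25, edgeR adjusted p = 2.62e-07). Zbp1, a nucleic acid sensor, and Mx1, an antiviral GTPase, were higher by 1.52 ± 0.24 and 2.36 ± 0.55. Irf9, a DNA-binding interferon regulatory factor, and Gbp7, whose exons overlap a same-strand transcript, were lower, with log2 differences of -0.65 ± 0.16 and -1.17 ± 0.17. The lower calls numbered 3 without IL4 library 1 and 4 without corticosterone library 3, and the higher ones 5 with only the compared groups fitted or the library number as a block.

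Cholesterol synthesis was uniformly on the IL4 side among called genes: 15 of 24 tested were higher and none lower, with a median of 0.32. Dhcr7, which makes the final double-bond reduction, read 94.1, 106 and 94.8 CPM with IL4, 44, 48.5 and 46.3 CPM with corticosterone and 47.8, 51.4 and 47 CPM with vehicle (log2 difference 1.08 ± 0.11, edgeR adjusted p = 3.31e-08). Mvd, of the mevalonate branch, read 79.1, 75.9 and 85.6 against 40.8, 41.9 and 43.3 CPM (0.93 ± 0.10). These differences were small beside those of the effector genes, but the groups did not overlap in either gene. Hmgcs1, with an antisense neighbour, and Cyp51 had log2 differences of 0.74 ± 0.09 and 0.54 ± 0.09.

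Genes of sterol export and storage gave 7 higher and 5 lower members of 17 tested. Abcg1, the exporter of sterols to lipoproteins, read 290.5, 349 and 305 CPM with IL4, 92.2, 95.7 and 73.4 CPM with corticosterone and 94.9, 104 and 87.2 CPM with vehicle (log2 difference 1.85 ± 0.13, edgeR adjusted p = 2.1e-10). Ch25h, which makes 25-hydroxycholesterol, read 17.8, 12.2 and 13.4 against 1.51, 1.57 and 1.06 CPM, with 15.2, 11.2 and 10.6 CPM for vehicle (edgeR adjusted p = 2.71e-07). In Abcg1 the IL4 libraries were apart from vehicle, in Ch25h the corticosterone libraries were. Lipa, the lysosomal acid lipase, and Soat1, which esterifies cholesterol, were higher by 0.64 ± 0.06 and 0.36 ± 0.07. The 5 lower calls (Abca1, Mylip, Apoe, Cyp27a1 and Plin2) were not robust to single libraries, their number being 3 with no filter on low counts or without corticosterone library 3, 2 without IL4 library 1 or corticosterone library 2 and 1 without corticosterone library 1, IL4 library 2 or IL4 library 3.

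Fatty acid uptake and oxidation genes were higher in 15 and lower in 4 of 29 tested (median 0.35). Lpl, the lipoprotein lipase, read 2437, 2933 and 2703 CPM with IL4, 1219, 1403 and 1209 CPM with corticosterone and 1206, 1731 and 1536 CPM with vehicle (log2 difference 1.07 ± 0.13, edgeR adjusted p = 7.53e-07). Hadha, of mitochondrial oxidation, read 221, 242 and 234 against 167, 176 and 180.1 CPM (0.41 ± 0.05). The groups did not overlap in either gene. Synthesis and desaturation were divided, 5 higher and 5 lower of 16 tested: Scd2, a desaturase, was higher, at 346, 328 and 307 against 131, 109 and 95.5 CPM (1.55 ± 0.16), and the elongases Elovl6 (-0.50 ± 0.11) and Elovl5 (-0.32 ± 0.08), the desaturase Fads1 (-0.27 ± 0.07) and Acss2 (-0.79 ± 0.19) were lower. The lower oxidation genes numbered 2 with no filter on low counts or without IL4 library 2 or corticosterone library 2, and the higher synthesis genes 3 with no filter on low counts or without IL4 library 2, IL4 library 3 or corticosterone library 3 and 8 with the library number as a block.

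In glycolysis, isoforms of the same enzyme differed in opposite directions. Pfkp, a phosphofructokinase with an overlapping neighbour, read 204, 217 and 209 CPM with IL4, 101, 102 and 92.4 CPM with corticosterone and 109, 108 and 98.4 CPM with vehicle (log2 difference 1.09 ± 0.09, edgeR adjusted p = 3.05e-09). Pfkl, the liver-type isoform, read 98.9, 83.9 and 91.2 against 172, 163 and 166 CPM, with 220.0, 172 and 179 CPM for vehicle (-0.87 ± 0.12, edgeR adjusted p = 7.06e-06). No libraries overlapped between the groups for either isoform. Pfkfb4, which makes the activator of phosphofructokinase, was higher (1.72 ± 0.12), and the hypoxia-responsive Pdk1 (-0.48 ± 0.07) and Bnip3 (-0.86 ± 0.11, with an antisense neighbour) were lower. Over the list 5 of 27 tested were higher and 6 lower, with the same median as all tested genes, -0.03, or 0.04 without corticosterone library 1; the higher ones numbered 8 with the library number as a block and 3 without IL4 library 1, corticosterone library 2 or corticosterone library 3.

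Arginine and polyamine metabolism had 11 higher and 3 lower members of 20 tested (median 0.38). Slc7a2, the cationic amino acid transporter that brings in arginine, with an antisense neighbour, read 436, 379 and 363 CPM with IL4, 13.1, 11.5 and 11 CPM with corticosterone and 8.93, 7.23 and 5.47 CPM with vehicle (log2 difference 5.05 ± 0.84, edgeR adjusted p = 8.09e-05). Gatm, which makes the creatine precursor from arginine, read 452, 481 and 503 against 79.8, 87.1 and 79.6 CPM (2.54 ± 0.44, edgeR adjusted p = 0.000129). Ass1, which remakes arginine from citrulline, read 94.2, 68.7 and 68.4 against 20.6, 13 and 10.8 CPM, with 46.9, 28.1 and 24.8 CPM for vehicle (2.38 ± 0.32, edgeR adjusted p = 3.87e-06). The transporter, Arg1 and both enzymes thus stood highest with IL4, and in Ass1 corticosterone was below vehicle. Sat1, of polyamine breakdown, and Aldh18a1, of proline synthesis, were higher by 0.91 ± 0.11 and 0.57 ± 0.12. The lower members numbered 1 without IL4 library 3.

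Haem and iron genes were lower with IL4 in 11 of 22 tested and higher in 5 (median -0.28). Tfrc, the transferrin receptor that imports iron, read 2220.5, 2408 and 2243 CPM with IL4, 625, 639 and 529 CPM with corticosterone and 755, 826 and 700.4 CPM with vehicle (log2 difference 1.94 ± 0.30, edgeR adjusted p = 2.38e-05). Steap3, an iron reductase, and Aco1, the iron-sensing aconitase, were higher by 0.73 ± 0.07 and 0.52 ± 0.06. The haem oxygenase Hmox1 and the iron exporter Slc40a1 were on the corticosterone side with Cd163, with means of 749 and 31.4 CPM for IL4 against 1289.7 and 119 CPM (log2 differences -0.78 ± 0.15 and -1.92 ± 0.30). Without library 3 of the IL4 group the lower members were 7.

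Prostaglandin and leukotriene genes gave 6 higher and 3 lower of 20 tested (median 0.08, or 0.02 without corticosterone library 1). Pla2g7, which breaks down platelet-activating factor, read 225, 202 and 195 CPM with IL4, 557, 571 and 635 CPM with corticosterone and 329.5, 290.1 and 274 CPM with vehicle (log2 difference -1.5 ± 0.14, edgeR adjusted p = 1.1e-08). Hpgds, the prostaglandin D synthase, and Alox5ap, needed for leukotriene synthesis, were lower, with -0.69 ± 0.07 and -0.59 ± 0.07. Ptger2, a receptor for prostaglandin E2 with an antisense neighbour, was higher (1.09 ± 0.16).

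Matrix proteases and their inhibitors were higher in 8 and lower in 2 of 31 tested (median 0.12, or -0.01 without corticosterone library 3 and 0.22 without IL4 library 3). Called were 32.3%, close to the 31.7% of all tested genes. Mmp12, the macrophage elastase, read 1816, 1465 and 1332 CPM with IL4, 153, 98.6 and 73.1 CPM with corticosterone and 443, 301 and 236 CPM with vehicle (log2 difference 3.83 ± 0.47, edgeR adjusted p = 1.77e-06). Mmp13, a collagenase, read 204, 124 and 138 against 35.4, 21.8 and 24 CPM (2.52 ± 0.36, edgeR adjusted p = 1.03e-05), and Timp2, a protease inhibitor, 904, 893 and 841 against 423, 393 and 362 CPM (1.16 ± 0.12). In all 3 the groups were apart. Library 1 was the highest of each group in Mmp12 and Mmp13. Ctsk, a collagen-cleaving cathepsin, and Cst7, a cystatin, were higher by 0.91 ± 0.15 and 3.63 ± 0.59. The lower calls were Mmp14 and Ctsc, numbering 1 with RLE scaling, no filter on low counts, a minimum count of 50 or only the compared groups fitted or without corticosterone library 1, IL4 library 2, corticosterone library 2 or IL4 library 3 and 5 with the library number as a block.

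Of 20 tested genes of blood clotting and fibrinolysis, 7 were higher with IL4, 3 lower and 10 not called (median 0.43, or 0.28 without IL4 library 1 and 0.83 without corticosterone library 1). F7, coagulation factor VII, read 56.1, 64.3 and 54.9 CPM with IL4, 6.31, 4.61 and 4.02 CPM with corticosterone and 6.27, 4.26 and 2.53 CPM with vehicle (log2 difference 3.56 ± 0.55, edgeR adjusted p = 3.31e-05). F10, the factor it activates, read 66.3, 69 and 70.3 against 6.05, 4.57 and 4.5 CPM, with 7.99, 5.12 and 3.66 CPM for vehicle (3.77 ± 0.46, edgeR adjusted p = 1.72e-06). Both were at the vehicle level with corticosterone, whereas F13a1, which crosslinks fibrin, had its highest values there. Thbd, thrombomodulin, and Entpd1, which breaks down extracellular ATP and ADP, were lower with IL4, with log2 differences of -0.76 ± 0.12 and -1.0 ± 0.17. With the library number as a block 5 members were lower.

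Growth factors of tissue repair were higher in 6 and lower in 1 of 21 tested (median 0.06, or -0.05 without IL4 library 1 and 0.28 without corticosterone library 1). Called were 33.3%, close to the 31.7% of all tested genes. Igf1, insulin-like growth factor 1, read 935, 989 and 975 CPM with IL4, 263, 276 and 266 CPM with corticosterone and 323, 377 and 315 CPM with vehicle (log2 difference 1.85 ± 0.29, edgeR adjusted p = 3.63e-05). Pdgfc read 58.7, 57.9 and 60.3 against 26.8, 25.6 and 25.3 CPM (1.19 ± 0.16) and Pdgfa, with an overlapping transcript, 137, 106 and 111 against 42.6, 31 and 27.9 CPM (1.81 ± 0.29), both encoding platelet-derived growth factors. The groups did not overlap in these 3. Fgf1, the lower member, stood at or below 1.66 CPM in every library (-3.03 ± 0.45), and the lower calls numbered 0 with a minimum count of 50, 2 with only the compared groups fitted or without IL4 library 1 and 5 with the library number as a block.

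Genes of cell fusion and of osteoclasts gave 9 higher and 6 lower of 19 tested. Cdh1 read 53, 49.8 and 45.6 CPM with IL4, 0.832, 0.896 and 0.755 CPM with corticosterone and 1.35, 1.56 and 1.43 CPM with vehicle, and the fusion proteins Dcstamp and Ocstamp 9.05, 9.6 and 8.95 and 12.3, 12.9 and 10.9 CPM with IL4 against 1.59, 0.864 and 1.03 and 1.02, 0.608 and 1.06 CPM. Atp6v0d2, a proton pump subunit of osteoclasts and fusing macrophages, read 771, 753 and 628 against 99.5, 85.8 and 50.7 CPM (log2 difference 3.19 ± 0.43, edgeR adjusted p = 6.18e-06). In these 4 genes all IL4 libraries were above all corticosterone libraries. Cd9, a tetraspanin with an antisense neighbour, was higher (1.58 ± 0.15) and Myo10, a motor of filopodia, lower (-1.16 ± 0.14).

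Lysosomal genes were higher in 12 and lower in 2 of 34 tested (median 0.12). Atp6v0a1, a proton pump subunit, read 1329.7, 1561 and 1423 CPM with IL4, 415, 490.0 and 452 CPM with corticosterone and 416, 514 and 448 CPM with vehicle (log2 difference 1.67 ± 0.14, edgeR adjusted p = 4.37e-09). Tfeb, the factor that drives lysosomal genes, read 77.7, 86.2 and 84.3 against 45.2, 44.5 and 39.1 CPM (0.95 ± 0.10, edgeR adjusted p = 5.12e-08), and the pump subunit Atp6v1b2 was higher by 0.54 ± 0.08. For Atp6v0a1 and Tfeb the corticosterone libraries were at the vehicle level and IL4 stood alone.

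In the integrated stress response 12 of 22 tested genes were higher with IL4 and 1 lower (median 0.43). Atf3, a stress-induced factor, read 469, 445 and 447 CPM with IL4, 179.9, 148 and 128 CPM with corticosterone and a mean of 181 CPM with vehicle (log2 difference 1.58 ± 0.25, edgeR adjusted p = 3.52e-05). Asns, asparagine synthetase, read 45.7, 49.5 and 53.3 against 27.6, 24.3 and 23.3 CPM, with 41, 34.8 and 34.7 CPM for vehicle (0.98 ± 0.18, edgeR adjusted p = 0.000177). For Asns vehicle lay between the groups and for Atf3 corticosterone was near vehicle. Atf5 and the one-carbon enzyme Mthfd2 were higher by 0.72 ± 0.16 and 0.59 ± 0.14. The lower member, Vldlr, was lost without library 2 or library 3 of the IL4 group.

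Oxidative phosphorylation genes differed by small, one-sided steps: 15 of 39 tested were higher and none lower, with a median of 0.26. Uqcrc1, a core subunit of complex III, read 327, 336 and 338 CPM with IL4, 223, 219 and 232 CPM with corticosterone and 248, 226 and 242 CPM with vehicle (log2 difference 0.57 ± 0.09, edgeR adjusted p = 1.64e-05). Sdhb, of complex II, and Ndufb10, of complex I, were higher by 0.51 ± 0.09 and 0.34 ± 0.07, and Atp5c1, of the ATP synthase, by 0.32 ± 0.07. The count of higher members was 31 with only the compared groups fitted and 24 with the library number as a block. Cytosolic ribosomal proteins had a median of 0.16 and 2 called members of 40, Rpl13a (0.36 ± 0.09) and Rpl19 (0.21 ± 0.08, with edgeR adjusted p between 0.0734 and 0.144 where it was lost); their number was 4 with RLE scaling, 1 with no filter on low counts or without IL4 library 1, corticosterone library 1, corticosterone library 2 or IL4 library 3, 6 with a minimum count of 50, 5 with DESeq2, 29 with only the compared groups fitted and 16 with the library number as a block.

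Cell cycle genes were lower with IL4 in 17 of 40 tested and higher in 1, the D-type cyclin Ccnd1, with a median of -0.36, or -0.18 without IL4 library 1. Aurka, a mitotic kinase, read 40, 44.7 and 56.5 CPM with IL4, 59.8, 68.9 and 73.9 CPM with corticosterone and 70, 77.5 and 85.1 CPM with vehicle (log2 difference -0.52 ± 0.11, edgeR adjusted p = 0.000999). Ube2c, which marks mitotic proteins for destruction, read 44.4, 55.8 and 72.5 against 74.9, 85.4 and 96.6 CPM, with 86.7, 103 and 116 CPM for vehicle (-0.57 ± 0.14, edgeR adjusted p = 0.00248). In both genes library 1 was the lowest of each group and library 3 the highest, and the groups did not overlap. The number of lower members depended on the libraries and the fit: it was 11 with no filter on low counts, 3 with only the compared groups fitted or without IL4 library 1, 26 with the library number as a block, 8 without IL4 library 2, 9 without corticosterone library 2 and 6 without corticosterone library 3. Among 15 tested inhibitors of cyclin-dependent kinases and related brakes, 4 were lower (Cdkn1b, Cdkn2b, Cdkn2c and Rb1) and Gadd45b was higher (1.36 ± 0.23); Cdkn1b, the inhibitor p27, read 21.9, 27.3 and 28.1 against 40.7, 44.7 and 49.8 CPM (-0.81 ± 0.18, edgeR adjusted p = 0.00145). The lower inhibitors numbered 7 with the library number as a block, and the call of Cdkn2b was lost with adjusted p = 0.0504 with no filter on low counts, 0.0581 with DESeq2, 0.131 with only the compared groups fitted, 0.109 without corticosterone library 1, 0.198 without IL4 library 2, 0.161 without corticosterone library 2 and 0.158 without IL4 library 3. Genes that drive and genes that brake the cycle were therefore both represented among the lower calls. Of the inhibitors and brakes 33.3% were called, against 31.7% of all tested genes.

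Genes of macrophage identity gave 5 higher and 7 lower of 20 tested, with a median of 0.000161. Csf2rb, the shared receptor chain for GM-CSF and IL3, read 1031, 1064 and 1076 CPM with IL4, 252, 256 and 251 CPM with corticosterone and 268, 267 and 264 CPM with vehicle (log2 difference 2.06 ± 0.15, edgeR adjusted p = 4.4e-10). Csf2ra, the specific chain, was higher too (0.76 ± 0.08). Maf, a factor of resident macrophages with an antisense neighbour, read 321, 294 and 342 against 787, 806 and 921 CPM, with 573, 613 and 733 CPM for vehicle (-1.39 ± 0.13, edgeR adjusted p = 2.39e-08). For Csf2rb the corticosterone libraries were close to vehicle and the IL4 libraries far above, while for Maf vehicle lay between the groups. With only the compared groups fitted 8 identity genes were higher.

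**Figure D4:**
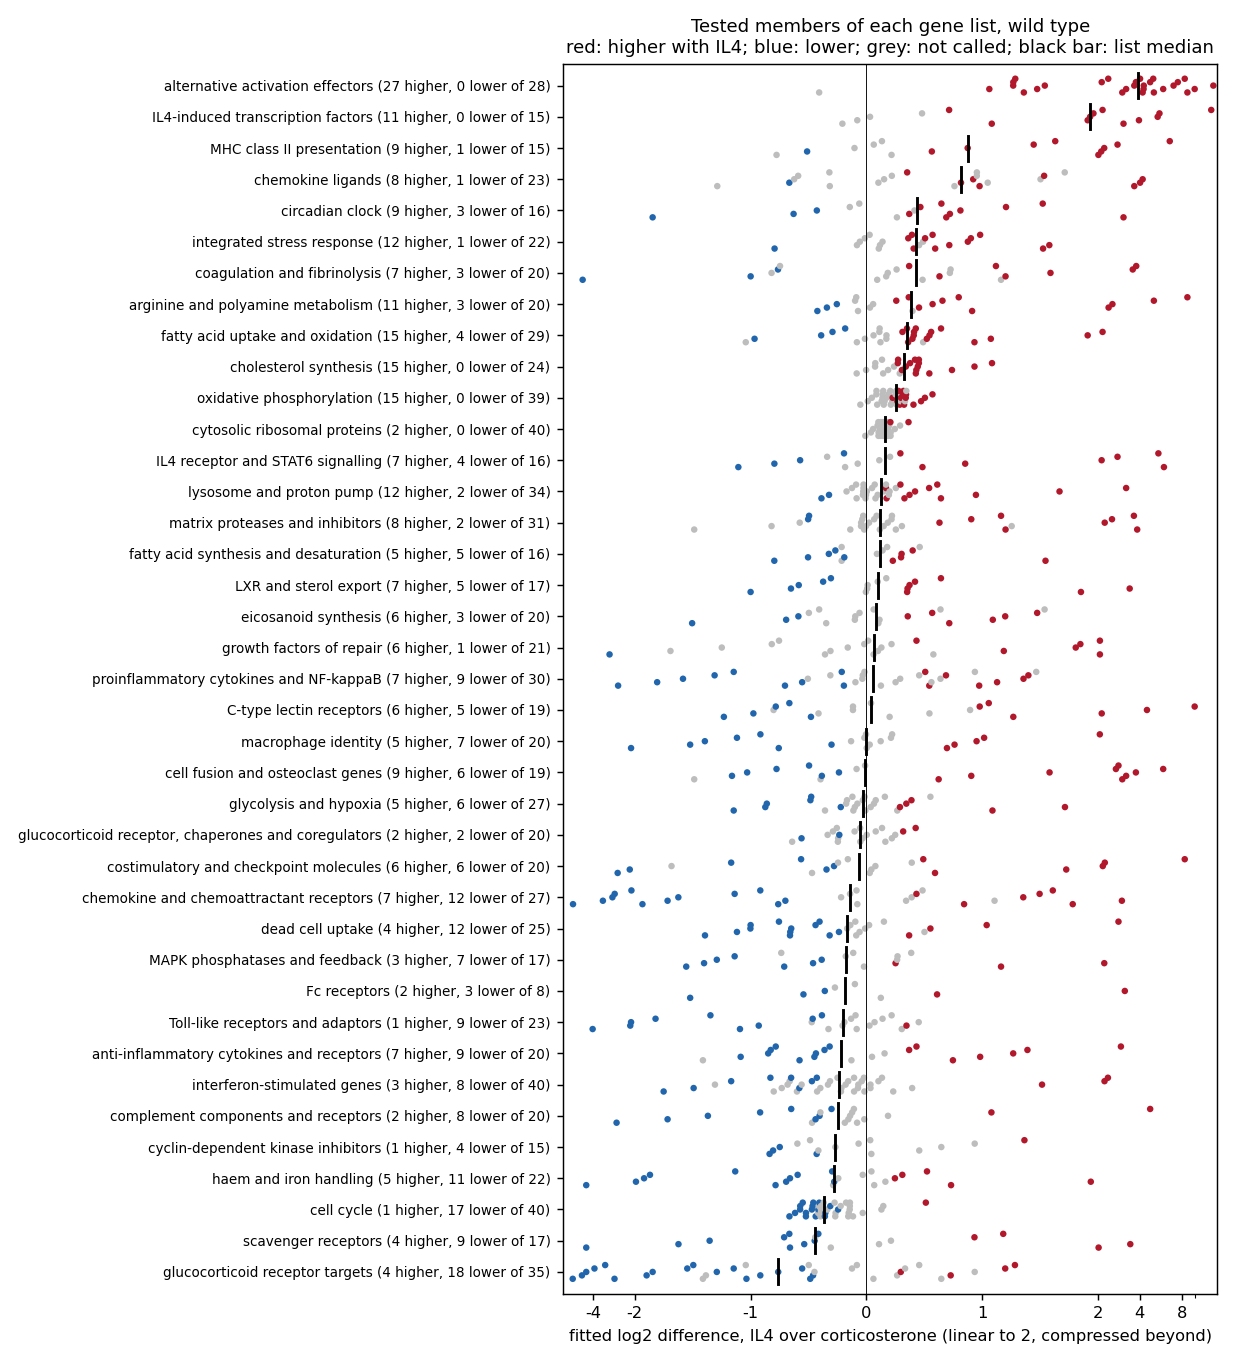
Each point is the fitted log2 difference, IL4 over corticosterone, of 1 tested member of the named list (linear to 2 on either side and compressed beyond); red members were higher with IL4, blue lower, grey not called, and black bars are list medians. The lists are ordered by median, from alternative activation effectors at the top to glucocorticoid receptor targets at the bottom.

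The contrast was repeated in knockout macrophages, which share no library with it, though both come from the same fit. Values there are given in the order of library numbers 1, 2 and 4 for IL4 and 1, 2, 3 and 4 for corticosterone. Stromal markers summed to 25.4, 44.7 and 31.0 CPM in the knockout IL4 libraries and 22.1, 46.6, 43.0 and 38.9 CPM in the knockout corticosterone libraries. The wild-type sums with these treatments were 229.7 to 972.2 CPM. The part of such cells in the differences between genotypes was not tested. Ncoa2 checked the labels: it read 17.1, 20.3 and 26 CPM in the knockout IL4 libraries and 17.2, 19.7, 18.9 and 25.2 CPM in the knockout corticosterone libraries, all below the lowest of the wild-type IL4 and corticosterone libraries, 59.0 CPM. In knockout cells 5531 genes were called (37.9%). Of the 4628 genes called in wild type, 4557 (98.5%) had the same sign in knockout, against 78.7% of all tested genes, and 3584 were called in the same direction in both, which is 77.4% of the wild-type calls and 64.8% of the knockout calls. Only 2 genes were called in opposite directions. Across the 14589 genes, which are not independent replicates, Pearson's r of the log2 differences was 0.869. Of 1233 wild-type calls of at least 2-fold, 988 were also at least 2-fold in the same direction in knockout.

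A difference between genotypes in the contrast was called for 4 genes, 0.0274% of those tested, all more positive in knockout, while 980 genes (6.72%) had an unadjusted p under 0.05. Lancl3, a LanC-like protein (chrX:9199902-9268085), read 12.8, 13.9 and 15.5 CPM with IL4 and 7.98, 6.36 and 6.59 CPM with corticosterone in wild type, and 8.83, 10.3 and 10.4 against 1.37, 1.67, 1.83 and 1.39 CPM in knockout. Its log2 difference was 1.01 ± 0.20 in wild type and 2.65 ± 0.20 in knockout, apart by 1.63 ± 0.28 (edgeR adjusted p = 0.0311). Gbe1, the glycogen branching enzyme (chr16:70313949-70569716), read 38.5, 34.1 and 35 against 66.7, 60 and 66 CPM in wild type and 25.5, 25.9 and 31.5 against 26.8, 26, 29.2 and 26.4 CPM in knockout. The wild-type groups of Gbe1 were apart and the knockout groups overlapped, and the log2 differences were -0.84 ± 0.09 and 0.03 ± 0.08, apart by 0.87 ± 0.12 (edgeR adjusted p = 0.00271).

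Pgm2l1, which makes glucose bisphosphate (chr7:100227394-100278868), had the same form: 86.9, 84.8 and 84.9 against 124, 133 and 122 CPM in wild type, without overlap, and 105, 114 and 128 against 117, 112, 120.2 and 121 CPM in knockout, with overlap (log2 differences -0.57 ± 0.07 and -0.02 ± 0.07, apart by 0.54 ± 0.10, edgeR adjusted p = 0.0396). Glrx, a glutaredoxin that reduces protein disulfides (chr13:75839868-75850154), read 150.2, 136 and 146 against 181, 163 and 151 CPM in wild type and 147, 162 and 149 against 90.3, 118, 94.1 and 94.3 CPM in knockout. Its log2 difference was -0.19 ± 0.10 in wild type, called only with the library number as a block (edgeR adjusted p = 0.0337), and 0.62 ± 0.10 in knockout, apart by 0.82 ± 0.14 (edgeR adjusted p = 0.0311). When each of the 13 libraries of the 4 groups was left out in turn, the call of a difference between genotypes was lost for Lancl3 and for Pgm2l1 in 12 of 13 fits (all but the one without knockout IL4 library 1) and for Glrx in 10 of 13, with edgeR adjusted p-values of up to 0.223, 0.275 and 0.275, whereas Gbe1 kept its call in all 13. The number of such genes was 95 with the library number as a block, 19 with DESeq2 and 2 with only the compared groups fitted, and between 0 and 6 when single libraries or numbered sets were left out, with 1 (Gbe1) in most of those fits.

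**Figure D5:**
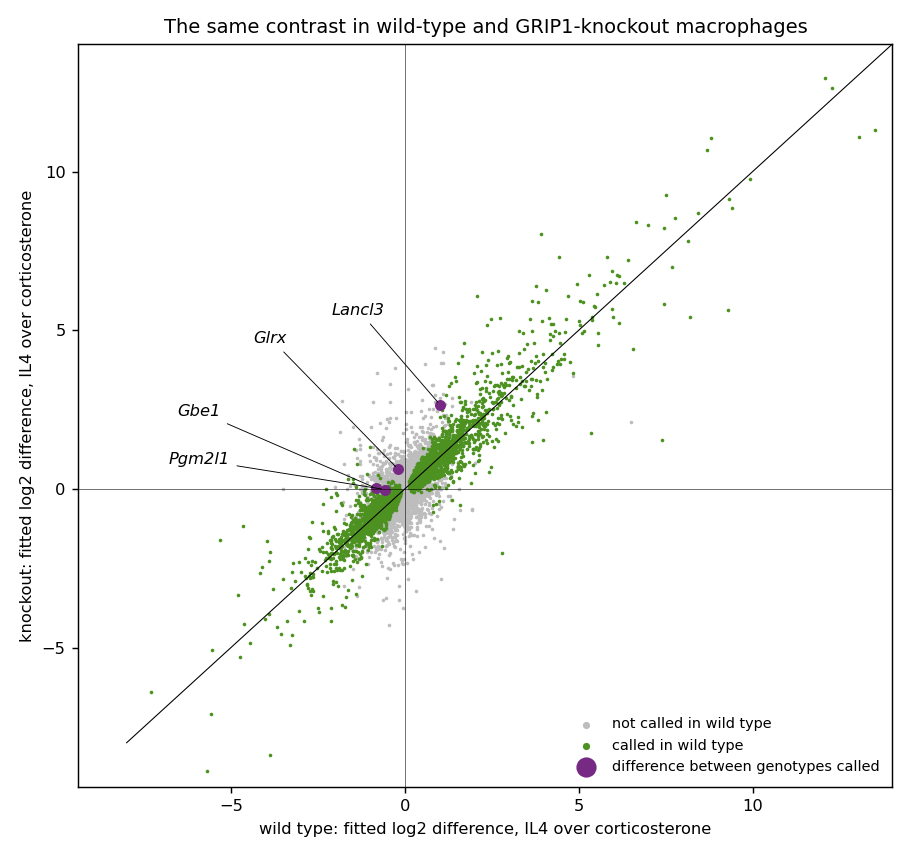
Each point is 1 of the 14589 tested genes, placed by its fitted log2 difference, IL4 over corticosterone, in wild type (horizontal) and knockout (vertical); green genes were called in wild type, and the diagonal marks equal differences. Most green genes lie near the diagonal, and the 4 labelled genes, whose difference between genotypes was called, lie above it.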

How the data were processed

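Deposited read counts per gene were used. Per the submitters' processing notes, the authors' tools were fastp 0.23.2, STAR 2.7.0, featureCounts and edgeR 3.38.4 with build mm10. No source used here states the strand setting, so genes with antisense or overlapping neighbours are less certain. Not every such gene is marked where it is named. Exons of other genes also overlap Lancl3, Cx3cr1, F13a1, Kcnd3, Cd55, Fcgr2b, Stab1, Ciita and, on the same strand, Il31ra, among others. Per the labels' protocols, libraries were stranded, polyA-selected and read as pairs of 50 bases. From the counts, edgeR 4.0.16 (R 4.3.3) fitted 8 groups over 27 libraries with TMM scaling, a minimum count of 10 (filterByExpr) and quasi-likelihood tests with Benjamini-Hochberg adjustment over all genes tested. Same-numbered wild-type IL4 and corticosterone libraries deviated together (r = 0.676, 0.245 and 0.585), so a replicate block was fitted as an alternative. Other alternatives were RLE scaling, no filter, a minimum count of 50, DESeq2 1.42.0, edgeR's newer fit, the compared groups alone and each library or numbered set left out. Named were the 12 genes per direction with the largest differences at a mean of 5 CPM or more in the higher group, without overlap between groups, and up to 5 members per list with the lowest p-values; others were named after their values were seen, and some genes under the rule are not reported here. Members and lists were chosen with earlier results of these data known. The fit was tested on simulated data. Intervals on sums of counts, at 95%, cover counting error only.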

Additional observations from a re-analysis of the deposited data

Results flagged for a closer look

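The IL4 against corticosterone difference itself differed between genotypes for 4 genes, by an interaction test in edgeR's quasi-likelihood fit. Of these calls, that of Gbe1 held without each of 13 libraries in turn, while those of Lancl3 and Pgm2l1 were lost in 12 of these 13 fits and that of Glrx in 10. On the log2 scale, knockout minus wild type, it was 1.63 for Lancl3, 0.87 for Gbe1, 0.82 for Glrx and 0.54 for Pgm2l1. In Lancl3 both genotypes were higher with IL4 and the knockout more so. In Gbe1 and Pgm2l1 the wild type was lower with IL4 and the knockout libraries overlapped. In Glrx the knockout was higher with IL4, and the wild-type difference was not called.

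Library 2 of the knockout corticosterone group stood apart from the other 3 in Glrx, at 118 CPM against 90.3, 94.1 and 94.3 CPM, with a gap of 0.859 of the group's range. It was the only one of 10 sets of 4 values tested to pass Dixon's test at the 95% level, which chance passes in about 1 of 20 sets. The sets were Gbe1, Glrx, Lancl3, Pgm2l1 and Ncoa2, each in the knockout corticosterone and knockout vehicle groups. They share libraries and so are not independent.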

How the results depend on the processing

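For the named genes followed across the alternatives, this contrast gave 3342 values. Of these, 3259 kept their direction and side of the threshold, 63 lost a call, 20 gained one and none changed sign. Of the wild-type calls, 2537 of 4628 held in every one of the 16 settings that tested the gene, and some genes were not tested in all of them. The number called was 2986 to 4351 when libraries or numbered sets were left out, 4237 to 5008 under RLE scaling, a minimum count of 50, DESeq2, edgeR's newer fit or the compared groups alone, 3934 with no filter and 6193 with the replicate block. The number lower with IL4 was 1357 to 2283 over the leave-outs and the number higher 1629 to 2143; the higher calls outnumbered the lower in 9 of 16 alternatives. Genes whose difference between genotypes was called numbered 4, and 19 with DESeq2, 2 with only the compared groups, 95 with the replicate block and 0 to 6 over the leave-outs, in most of which only Gbe1 was called; the cause was not tested. In the wild-type contrast the replicate block gained calls for Ncoa2, Glrx, Carm1, Rps18, Rpl4 and Rpl7. It changed no other call there among the named genes followed across the alternatives. Markers of other cell types are given above with their values. Further genes named in the text, such as Tlr4, were not followed one by one, nor were gains of calls against vehicle or between genotypes. Leaving out a numbered pair leaves 2 libraries a group. Genes at a few counts, such as Ccl17, are limited by depth.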

Other observations

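Some markers of other cell types differed between the treatments without the rest of their lists. Among endothelial markers, Vwf, the von Willebrand factor, read 206.7, 286.3 and 255.3 CPM with IL4, 65.7, 71.2 and 47.2 CPM with corticosterone and 66.6, 75.8 and 52.7 CPM with vehicle. Pecam1, a junction protein also found on leukocytes, read 35.4, 31.3 and 34.6 against 6.05, 5.25 and 4.70 CPM. Both were called higher with IL4 and Esam was lower, while Cdh5, Kdr and Emcn were not called and Tek was at or below 0.104 CPM. Among B cell markers Cd22, an inhibitory lectin, was higher, at 50.2, 51.0 and 42.9 against 25, 20.4 and 16.6 CPM, and Ms4a1 and Pax5 were at or below 0.320 CPM in every library. Of the T and NK cell markers only Klrb1c was called, at 0.841, 0.417 and 0.622 against 0.113, 0.096 and 0.0343 CPM, and Prf1 had no count. None of the 4 tested markers of mast cells and basophils and none of the 4 of erythroid cells and megakaryocytes was called at the edgeR threshold; with the library number as a block 2 of the mast cell and basophil markers were higher.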
